A study of Mus musculus with 2 samples.

Results

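Genes that mark the undifferentiated state of embryonic stem (ES) cells outside the core network of Oct3/4, Sox2 and Nanog were examined in Baf53a-deficient mouse ES cells kept alive by Baf53a or by its neuronal homologue Baf53b. The set holds 10 genes, Dppa2, Dppa4, Dppa5a, Tdh, Utf1, Lin28a, Sall4, Zfp296, Nr0b1 (Dax1) and Trim71, chosen by name and found on the array through the RefSeq accession of each probe. All 10 were measured on both arrays with 17 probes, among 16608 genes that could be named and measured on both. Their differences on the log2 scale (Baf53b- minus Baf53a-expressing cells) ran from -0.15 in Utf1 to 0.10 in Sall4. None was 1.2-fold apart, where 8.47% of all genes were at least 1.2-fold higher with Baf53b and 3.41% lower. In the brightest of 5 groups of genes, which holds 7 of the 10, these shares were 1.11% and 0.972%.

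The line was derived from E14 ES cells and is 1 clone with a conditional knockout (cKO) of Baf53a. CRISPR/Cas9 left it with no intact endogenous copy of Baf53a, and a transgene for the protein that tetracycline (Tet) shuts off keeps the line alive. The 2 groups differ in the plasmid they received, which encodes either Baf53a (Baf53a-expressing) or Baf53b (Baf53b-expressing). Both then spent 6 days in Tet (1 μg/mL, begun 48 h after the plasmid was given), in medium with leukaemia inhibitory factor (LIF). The mutated alleles, the transgene and Tet are thus common to both groups. RNA of each group was labelled with Cy3 and hybridised to 1 array, and both arrays lay on the same slide, at positions 3 and 4, and were read in the same scan. Since each condition had 1 array, replicate error is unknown, differences are described without tests, and precision is limited by how few arrays there were. A level is the log2 processed signal (brightness of the spot after background subtraction) with the 75th percentile of the array set to 0, a signal of 1161 in Baf53a- and 1128 in Baf53b-expressing cells. In bulk RNA, fewer cells that express a gene and less RNA per cell cannot be told apart.

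The label was checked first. Actl6b, the gene for Baf53b, passed the background flag on the Baf53b array alone, at a level of -3.24. With the lowest signal that passed the flag on the Baf53a array in place of its undetected signal there, Actl6b was at least 14.5-fold higher in Baf53b-expressing cells. Actl6a, the gene for Baf53a, stood at 1.71 and 1.67, a difference of -0.04, so that it was hardly higher in the cells labelled Baf53a-expressing and does not bear out that label. Whether its probe lies in the coding region carried by the vector, or also sees RNA of the mutated endogenous alleles, was not examined. Both arrays carried the defining markers of ES cells: all 6 on the list (Pou5f1, Sox2, Nanog, Klf4, Esrrb, Zfp42) were well above background on both.

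The 10 genes act at different points of the ES cell programme. Dppa2 and Dppa4 encode nuclear proteins with a SAP domain that bind each other and keep a set of developmental promoters open and free of DNA methylation. Dppa5a encodes an RNA-binding protein with a KH domain, and Tdh the mitochondrial threonine dehydrogenase, on which mouse ES cells depend for threonine breakdown. Utf1 is a chromatin-bound factor under Oct3/4 and Sox2. Lin28a blocks the maturation of let-7 microRNAs, and Trim71 is an RNA-binding protein of the TRIM family whose mRNA is a let-7 target. Sall4 and Zfp296 are zinc finger factors, and Nr0b1 is an orphan nuclear receptor that binds Oct3/4.

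RefSeq promoter sequence (build GRCm38.p6) was at hand for 5 of the 10 genes, Utf1, Lin28a, Zfp296, Nr0b1 and Trim71. The 250 bases before the start were searched on both strands for ATGCAAAT (the octamer bound by Oct factors), for TATAAA (the core of a TATA box), for GGGCGG (a GC box, bound by Sp factors) and for CCAAT (bound by NF-Y). Zfp296 was the only 1 of the 5 with the octamer, which 1.6% of the 32851 promoters in the table hold, and Nr0b1 the only 1 with TATAAA, which 12.4% hold. The letters GGGCGG were found in Utf1, Zfp296 and Trim71 (32.7% of all promoters), with overlapping matches in Utf1, and CCAAT in none of the 5 (33.8%). The GC content of the 5 ran from 57.2% in Nr0b1 to 64.0% in Zfp296, against a median of 52.4% over all promoters. Both sequences below are printed because Oct3/4 is the factor that the study ties to Baf53a and to Dax1. Capitals mark the motif letters, matches describe sequence and not binding, and binding was not measured here. They lie at chr7:19577037-19577286 (Zfp296) and chrX:86191525-86191774 (Nr0b1), both on the plus strand.
Zfp296: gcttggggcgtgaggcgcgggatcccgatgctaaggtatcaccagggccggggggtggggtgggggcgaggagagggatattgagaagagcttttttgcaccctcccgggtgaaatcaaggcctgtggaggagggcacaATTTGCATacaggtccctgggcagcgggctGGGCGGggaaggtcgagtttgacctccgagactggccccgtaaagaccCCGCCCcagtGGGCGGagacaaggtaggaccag
Nr0b1: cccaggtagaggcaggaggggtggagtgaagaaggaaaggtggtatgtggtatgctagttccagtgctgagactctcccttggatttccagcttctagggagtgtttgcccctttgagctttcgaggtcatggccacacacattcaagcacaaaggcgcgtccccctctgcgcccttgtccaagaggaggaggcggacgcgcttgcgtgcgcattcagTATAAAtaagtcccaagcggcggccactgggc
On the arrays, Zfp296 stood at 3.64 with Baf53a and 3.54 with Baf53b, and Nr0b1 at 3.10 and 3.17. The octamer in Zfp296 begins 111 bases before the start, and TATAAA in Nr0b1 32 bases before it.

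**Figure D1:**
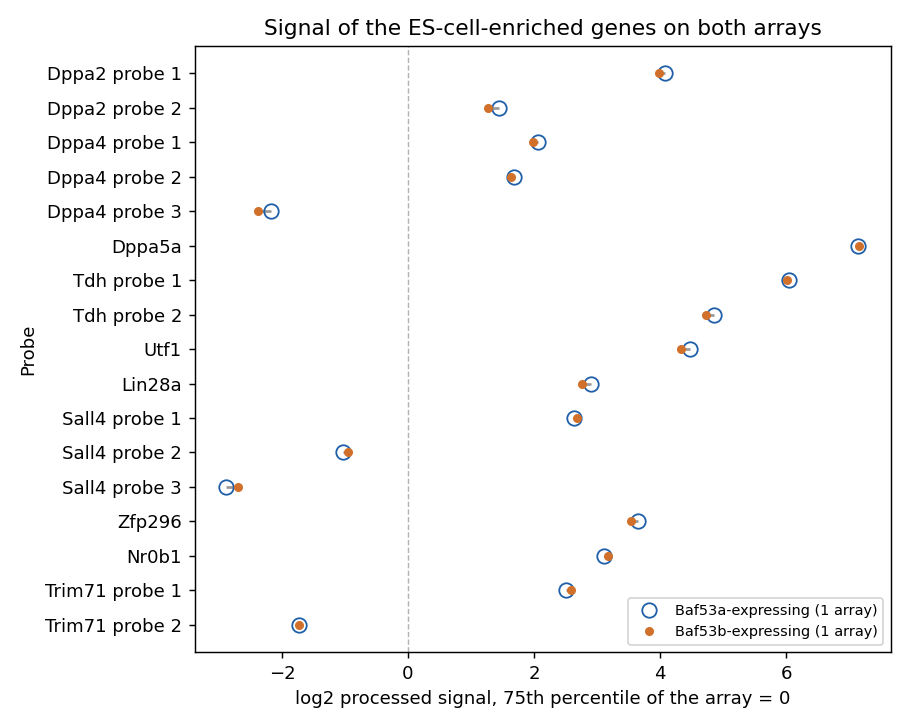
Level of each of the 17 probes of the 10 genes (log2 processed signal, with the 75th percentile of the array at 0) in Baf53a-expressing (open circles) and Baf53b-expressing cells (filled circles), 1 array each, with no error bars because there were no replicates. The circles of a probe lie close together throughout, at most 0.21 apart, and probe brightness is not comparable between genes.

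All 17 probes were well above background on both arrays and none was saturated. By their level averaged over probes, 7 of the genes lay in the brightest of 5 groups, whose limits split the probes into equal numbers, and Dppa4, Sall4 and Trim71 in the next. Bright probes as a whole were slightly lower in Baf53b-expressing cells. The median difference over the 2984 genes of the brightest group was -0.06, with an SD of 0.10, and 77.4% of them were below 0. Over all 16608 genes the median was -0.0032 and 50.9% were below 0.

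Of the 10 genes, 6 were below 0 and 4 above, with a median of -0.09. The size of this median depended on the scaling. It was -0.02 under quantile normalization, where Utf1 gave -0.07, Tdh -0.01 and Zfp296 -0.03, and -0.14 with the arrays centred on the median, where 8 of 10 were below 0. Over all genes, 0.193% were at least 2-fold apart. Of the 10 genes 0 passed 1.2-fold in either direction, by gene or by single probe. Read against the low shares of all genes past 1.2-fold given at the start, that count is not a result about the 10 genes.

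**Figure D2:**
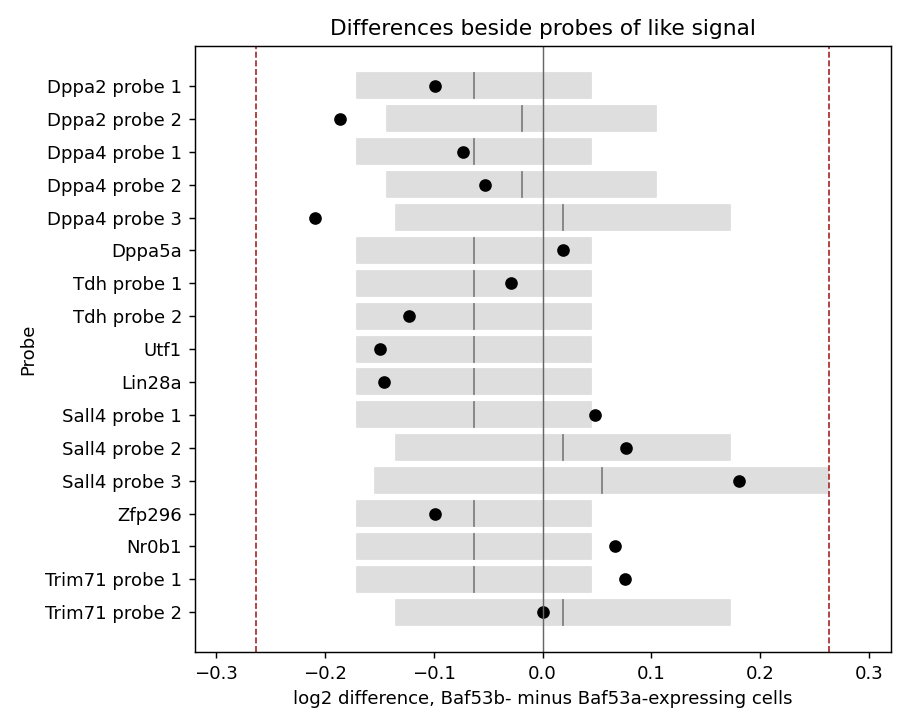
Difference of each probe (points, log2, Baf53b- minus Baf53a-expressing cells, 1 array each). Each grey band is the median and 1 SD on either side over all probes of like brightness, and dashed lines mark 1.2-fold. All points lie inside these lines, and 5 of the 17 lie outside their band. The share of all probes outside their band was not counted, so that 5 of 17 is not a result about the 10 genes.

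Transcripts of Dppa2 and Dppa4, which encode chromatin proteins, were both lower in Baf53b-expressing cells. The brighter Dppa2 probe stood at 4.08 with Baf53a and 3.98 with Baf53b, and its other probe at 1.45 and 1.26. The gene thus differed by -0.14, with -0.10 and -0.19 from its probes, and 16.6% of the genes of like signal had a lower value. Dppa4 was measured with 3 probes, which stood at 2.06, 1.69 and -2.17 in Baf53a-expressing cells. In Baf53b-expressing cells they stood at 1.98, 1.64 and -2.38. Every Dppa4 probe was lower, by -0.07, -0.05 and -0.21, for a mean of -0.11. The dimmest Dppa4 probe and the dimmer Dppa2 probe were the only 2 of the 17 that lay more than 1 SD below the median of probes of like brightness, at -1.49 and -1.35 SD from it. Of all probes of like brightness, 4.98% and 5.74% were lower still. Dppa2 and Dppa4 are neighbours on chromosome 16 in the RefSeq gene table, with no other protein-coding gene between them.

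Utf1 and Lin28a had 1 probe each and differed about as much as Dppa2. Utf1 gave a processed signal of 25795 in Baf53a- and 22592 in Baf53b-expressing cells, which is a level of 4.47 and 4.32. Its difference was -0.15, or 1.11-fold, and 14.8% of the genes of like signal had a lower one. Lin28a gave 8725 and 7663, a level of 2.91 and 2.76 and a difference of -0.15. The error that the scanner software attaches to each spot was 10% of the signal or slightly more for every probe, close to the differences of Utf1 and Lin28a. Probes of the brightest group that were printed repeatedly gave a smaller error, an SD of 0.06 for the difference of a pair of spots, which leaves out the spread between cultures and hybridisations.

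Tdh and Zfp296 were close to the bright genes as a whole. The probes of Tdh stood at 6.04 and 4.85 in Baf53a- and at 6.01 and 4.73 in Baf53b-expressing cells. They differed by -0.03 and -0.12, a mean of -0.08 against the median of -0.06 for genes of like signal. Zfp296 gave -0.10 from 1 probe, and 33.7% of the genes of like signal were lower. Dppa5a stood at 7.13 and 7.15, a difference of 0.02 from 1 probe. The gene table also lists the pseudogenes Dppa5b and Dppa5c, and whether the probe sees them was not examined.

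Sall4, Nr0b1 and Trim71 stood a little higher in Baf53b-expressing cells. All 3 probes of Sall4 were higher. The brightest stood at 2.63 and 2.68, the next at -1.03 and -0.95 and the dimmest at -2.88 and -2.70. Their differences were 0.05, 0.08 and 0.18, the largest from the dimmest probe, where the SD of all probes of like brightness was 0.21. The mean of 0.10 was above that of 87.7% of the genes of like signal. That mean level falls in a brightness group that holds none of the 3 probes. Within their own groups the probes were above 86.5%, 65.7% and 75.8% of all probes. Trim71 stood at 2.5 and 2.58 with its brighter probe and at -1.73 on both arrays with the other. Its differences were 0.08 and 0.0005.

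Nr0b1 is the only gene of the set with repeated spots of 1 probe, 10 on each array. The signal ran from 9495 to 10431 with a median of 10034 in Baf53a-expressing cells, and from 9740 to 10799 with a median of 10079 in Baf53b-expressing cells. As levels these are 3.10 ± 0.04 and 3.17 ± 0.04 (SD, 10 spots of 1 array each), and the spots of the arrays overlap. At the same place on the array the spot was higher in Baf53b-expressing cells in 10 of 10 cases, by 0.03 to 0.13, with a mean of 0.07, or 1.05-fold. That count rests on the scaling: with the arrays centred on the median it was 6 of 10, with a mean of 0.02, and in the signals before scaling 7 of 10. Spots of 1 array share 1 RNA and 1 hybridisation, so their spread leaves out the cultures. Dax1 was above 90.8% of the genes of like signal, and its probe lay 1.2 SD above the median of probes of like brightness. Measured the same way, the brightest Sall4 probe lay at 1.03 SD and the brighter Trim71 probe at 1.29 SD. The other probes of Sall4 lay at 0.37 and 0.61 SD, and that of Trim71 at -0.12 SD. Of the 17 probes, 0 lay more than 2 SD from that median. The share of all probes past 1 SD was not counted.

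**Figure D3:**
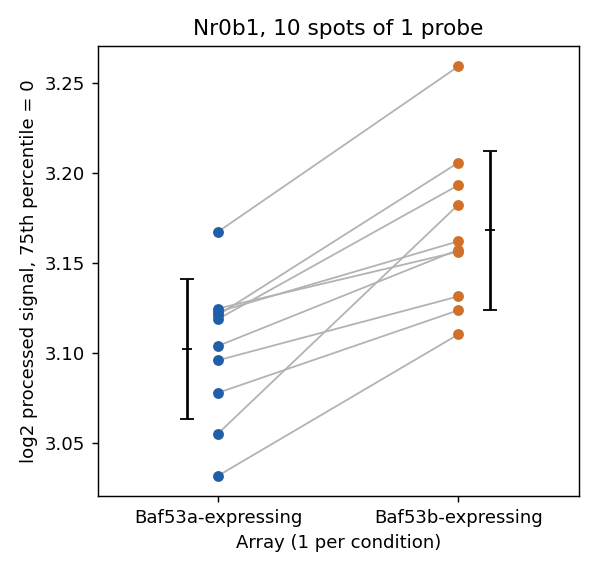
Level of Nr0b1 (Dax1) in each of 10 spots of its probe on both arrays, with lines joining spots at the same place and bars giving the mean and 1 SD over spots. The vertical axis does not start at 0; with this scaling every line slopes up towards Baf53b and the means differ by 0.07, but with the arrays centred on the median 6 of 10 would.

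**Figure D4:**
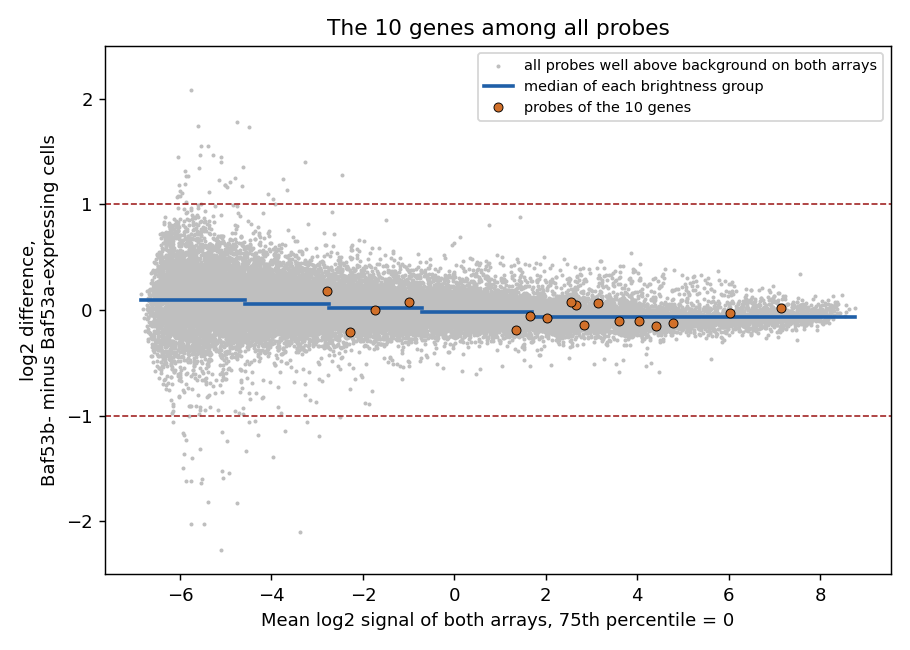
Difference (log2, Baf53b- minus Baf53a-expressing cells) against mean level for 29247 probes that passed the background flag on each array. The blue steps are the median of 5 groups of probes of equal size, from 0.10 in the dimmest to -0.06 in the brightest, dashed lines mark 2-fold, and the 17 probes of the 10 genes lie within the central cloud.

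The split between genes above and below 0 depended little on the scaling. Dppa2, Dppa4, Tdh, Utf1, Lin28a and Zfp296 were below 0 and Nr0b1 and Sall4 above it in every one of the 9 settings run. Dppa5a and Trim71 changed sign when the arrays were centred on the median (-0.03 and -0.01). Cyclic loess, which removes the trend with brightness, gave the 10 genes a median of -0.03 and the 3322 brightest genes -0.01.

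The other genes of the Dppa family did not go with Dppa2 and Dppa4. Dppa1 stood at -1.61 in Baf53a- and -1.18 in Baf53b-expressing cells, 0.43 higher, with 0.36 and 0.50 from its probes. Dppa3 (Stella), a maternal factor also found in naive ES cells, stood at -0.56 and -0.35, a difference of 0.21. The names of these genes come from how they were found, and apart from Dppa2 and Dppa4, which share a SAP domain, their proteins are unlike. In the Sall family, Sall1 (0.10) and Sall3 (0.16) were higher like Sall4, and Sall2 was lower (-0.19).

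Genes that work with the 10 genes were counted on lists drawn up by function. Each count is to be read beside the shares of all genes given above, and no list was tested. Of 10 genes of the 2-cell state, a programme that Dppa2 and Dppa4 are known to activate, 8 were on the array and all 8 were above 0, with a median of 0.18. They ran from Zscan4f (0.02) to Tcstv1 (0.27), which was the only 1 at least 1.2-fold higher. Members of the Zscan4 and Usp17l families are near copies, so that their probes may share signal and are not separate observations. Under centring on the median 7 of the 8 were above 0.

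The let-7 pathway around Lin28a, from processing enzymes to let-7 targets, had 14 of 14 genes measured, 6 above and 8 below 0, with a median of -0.04. None passed 1.2-fold, and they ran from Dgcr8 (-0.17), a partner of Drosha in microRNA processing, to Hmga2 (0.17), a chromatin protein and let-7 target. Lin28b stood at -2.43 and -2.46. Its probes disagreed, at -0.27 and 0.22. The list for Trim71 held 8 genes, the Ago and Tnrc6 genes of RNA silencing and Cdkn1a (p21), a cell cycle inhibitor whose mRNA Trim71 is known to repress. Of these, 4 were above 0, with a median of 0.0002, and Cdkn1a gave -0.03. Ago1 was lowest (-0.17), and Ago3 was highest (0.28) and the only 1 past 1.2-fold, both of them dim.

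The NuRD complex, a histone deacetylase complex that Sall4 recruits, had 12 of 12 genes measured, 6 above and 6 below 0, with a median of 0.01. Mta2 was lowest (-0.19). Rbbp4 was highest (0.28) and the only 1 past 1.2-fold, but its probes gave -0.03 and 0.59. Enzymes of threonine, glycine and serine metabolism beside Tdh also divided 6 and 6, with a median of -0.0004 and none past 1.2-fold. Shmt2, the mitochondrial serine hydroxymethyltransferase, was lowest (-0.15) and Amt, part of the glycine cleavage system, highest (0.22). Of 6 nuclear receptors listed with Nr0b1, 3 were below 0, with a median of -0.07. Nr0b2, the closest relative of Nr0b1, had the lowest value (-0.82) and was the only 1 past 1.2-fold, from 1 probe in the dimmest group, where the SD of all probes was 0.32. Nr6a1, the germ cell nuclear factor, was highest (0.19). Tcstv1, Ago3, Rbbp4 and Nr0b2 each fell short of 1.2-fold in at least 1 other setting. The splits around 0 also rest on the scaling. With the arrays centred on the median, 3 of the 12 NuRD genes, 4 of the 12 metabolic genes and 3 of the 14 let-7 pathway genes were above 0.

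**Figure D5:**
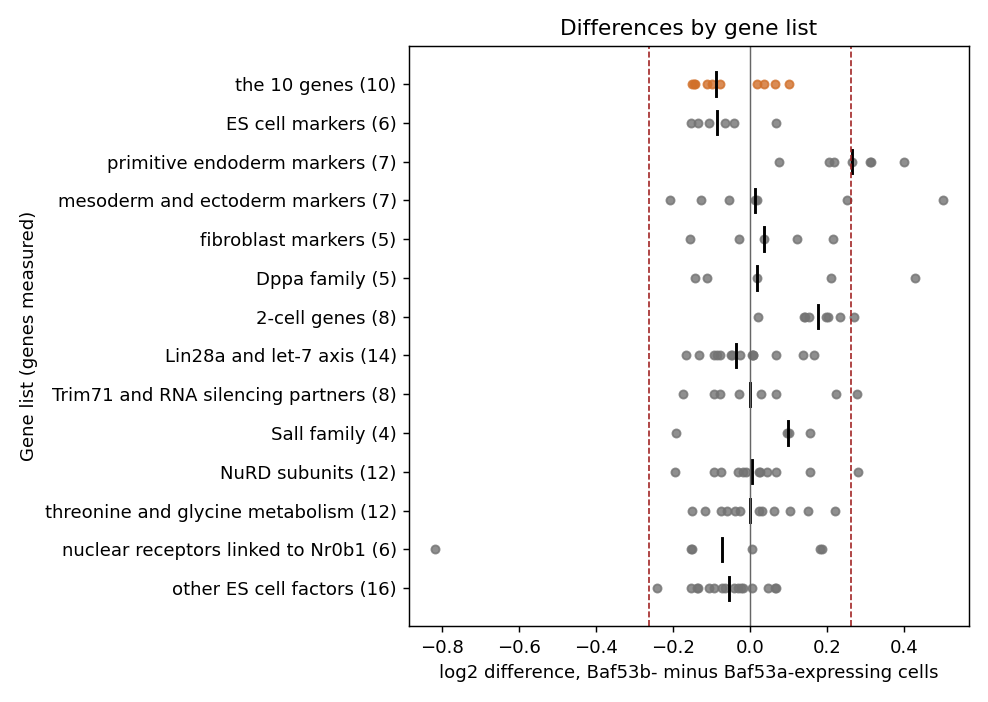
Difference (log2, Baf53b- minus Baf53a-expressing cells) of each gene measured on both arrays, by list, with the number measured in brackets; short lines are medians and dashed lines 1.2-fold. The 10 genes (top) lie between -0.15 and 0.10, the primitive endoderm markers between 0.08 and 0.40, and some genes stand in more than 1 list.

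Other ES cell factors were set beside the 10 genes. Of 16 such genes, which include the 6 ES cell markers, 12 were below 0, with a median of -0.05 and none past 1.2-fold. They ran from Gdf3 (-0.24), a TGF-β family ligand, to Sox2 (0.07), so that 9 of the 10 genes lay within their range and Sall4 above it. The other markers gave -0.13 for Pou5f1 (Oct3/4), -0.07 for Nanog, -0.04 for Klf4, -0.15 for Esrrb and -0.11 for Zfp42 (Rex1). With the arrays centred on the median, or with the brightest probe of each gene, 1 of the 16 genes was at least 1.2-fold lower.

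Markers of other cell types were read beside them. All 7 markers of primitive endoderm were measured and all 7 were higher in Baf53b-expressing cells, with a median of 0.27 and 4 of 7 past 1.2-fold, from Sox7 (0.08) to Dab2 (0.40). Their processed signal was summed over all probes before scaling, so that a gene with several probes counts more than once. The sum was 3124 in Baf53a- and 3637 in Baf53b-expressing cells. Gata6 was the brightest of the 7, and none of the 7 was below background. All 7 were above 0 in each of the 9 settings, but the number past 1.2-fold was 3 with either quantile normalization or cyclic loess, 2 with the arrays centred on the median and 1 under normexp background correction. All but Gata6 lay in groups 2 and 3 of the 5 groups of brightness, counted from the dimmest. Of all probes in those groups, 14.1% and 5.73% were at least 1.2-fold higher, with medians of 0.05 and 0.02. Of 8 markers of mesoderm and ectoderm 7 were measured, 4 above 0, with a median of 0.01 and a summed signal, taken the same way, of 2006 and 2011. They ran from Mesp1 (-0.21) to Fgf5 (0.50), the only 1 past 1.2-fold, Nes was the brightest and Mixl1 was not above background on either array. The number above 0 was 2 under quantile normalization, cyclic loess or centring on the median, and 6 under normexp. Quantile normalization and cyclic loess also put 1 at least 1.2-fold lower, and with the brightest probe of each gene 2 were at least 1.2-fold higher. Of 7 fibroblast markers 5 were measured, with a median of 0.04, a summed signal of 1562 and 1476, and none past 1.2-fold, from Thy1 (-0.15, also the brightest) to Col1a2 (0.22). Col3a1 passed the background flag on the Baf53b array alone and Postn on neither. Whether other cell types have a part in the differences of the 10 genes was not tested.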

How the data were processed

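Total RNA of both groups was measured on 1-colour whole-genome mouse arrays (Agilent, annotated on mm9). The authors deposited scanner output of Feature Extraction 11.0.1.1 that gives each spot's intensity (background-subtracted and spatially detrended), its error and its detection flags. A second deposited table holds ratio values. Each of 30479 values per array equalled the processed signal over 1 number per array within 0.1%.

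Control and outlier spots were left out, spots of 1 probe were averaged on the log2 scale, and every array was set to 0 at its 75th percentile over gene probes. A probe was measured when at least 50% of its spots were well above background on both arrays. Probes of a gene were averaged. Names came from RefSeq accessions in a gene table of GRCm38.p6, which differs from the array's build, so coordinates are given for promoter sequences of that build alone. Probes of like brightness are the same group among 5 of equal size by mean level, and a gene falls in the group its mean level reaches.

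The 10 genes, the lists and the alternatives were chosen with earlier results of these data known. All 10 genes are named. Of the other lists, the Dppa and Sall families, the ES cell markers and both Baf53 genes are named in full, and otherwise the highest and lowest gene. Lin28b, Cdkn1a, Gata6, Nes, Mixl1, Col3a1 and Postn were named after their values were seen. A gene of like pattern was not sought, since 2 arrays give no pattern. Calculations used Python 3.11.15, numpy 2.4.6, pandas 2.3.3, R 4.3.3 and limma 3.58.1, and the steps were tested on simulated data.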

Additional observations from a re-analysis of the deposited data

How the results depend on the processing

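No paired analysis was possible because each condition had a single array, so that none could be left out and the slide could not be a block. Normexp (offset of 50) was run on the median spot signal, since the mean signal was not at hand. Under all 8 alternatives run for the 10 genes, 0 of them were 1.2-fold apart in either direction, and between 6 and 8 were below 0. Their median, -0.09, was -0.0237 under quantile normalization, which also gave 0.129 for Nr0b1, -0.0138 for Tdh, -0.0737 for Utf1 and -0.0336 for Zfp296. Centring on the median moved the median of the 10 genes the other way, to -0.139, and gave 0.0152 for Nr0b1. With the brightest probe of each gene that median was -0.0514, and under cyclic loess -0.0287. Cyclic loess gave 0.0946 for Dppa5a and -0.0111 for Tdh. Quantile normalization and cyclic loess take out the trend with brightness by construction, and the other values of the 10 genes moved by less than the spot SD of a difference between probes of like brightness.

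Counts over all probes moved more. At least 1.2-fold higher and lower in Baf53b-expressing cells were 3066 and 1152 of 29247 probes. These were 1171 and 237 under normexp, 5057 and 2263 with a weaker detection flag, 5910 and 2829 without a filter on dim probes, and 203 and 108 of the 9731 probes at or above the 75th percentile. The lower count was 1792 under quantile normalization and 1920 when centred on the median, with 2126 and 2206 higher, so that scaling shifts the balance of higher to lower probes. At least 2-fold higher and lower were 40 and 34 probes, against 0 and 2 under normexp, 494 and 260 with the weaker flag, 847 and 490 without the filter, 0 and 0 at or above the 75th percentile, and 32 and 53 under quantile normalization. Filters change which probes enter, and for the other settings the cause was not tested.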
